A study of Mus musculus with 3 samples.

Results

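The genes described here encode the proteins of the cytoplasmic ribosome. They were taken from the GENCODE M21 annotation as protein-coding genes named Rpl or Rps followed by a number or by p, together with Rpsa, leaving out the S6 kinases and names marked as pseudogenes. The rule found 86 of 55536 annotated genes. By name, paralogs included, 52 are counted with the large 60S subunit and 33 with the small 40S subunit. The remaining match, Rps19bp1, encodes a protein that binds Rps19 and is not a subunit.

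Polyadenylated RNA came from 1 biological replicate of regulatory T cells (Tregs) of a male mouse aged 6 months, described in the labels as inflammation-experienced primary cells. The strain carries the tamoxifen-inducible recombinase CreERT2 at Foxp3, the gene of the factor that defines Tregs, and a YFP reporter at Rosa26. The replicate was sequenced as 3 technical replicates, called libraries 1, 2 and 3 by their labelled numbers, and nothing in the labels tells where they were split. There is no second condition, so the data give levels in these cells and differences between libraries, and p-values set those differences against counting noise and say nothing of other animals.

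Ribosomal proteins and ribosomal RNA form the machine that translates messenger RNA, and a ribosome carries each of nearly all these proteins as a single molecule. Their messenger RNAs are among the most abundant of a dividing cell, and many begin with a C followed by a run of pyrimidines, the TOP motif, through which the mTOR pathway sets their translation. The genes have left many processed pseudogenes in mammalian genomes, so short reads from them often match several places.

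Estimated counts over genes came to 11829501 in library 1, 14136139 in library 2 and 10667765 in library 3. All 8 Treg markers examined, Foxp3 among them, stood at 1 TPM (counts corrected for transcript length and scaled to a common total) or more in each library, with a summed level of 3436, 3174 and 3516 TPM. Summed markers of other cells differed between the libraries, in the order 1, 2, 3. B cell markers summed to 467, 714 and 899 TPM, erythroid markers to 4.83, 51.2 and 286, plasma cell markers to 1.57, 22.5 and 27.7, and myeloid markers to 9.79, 52.9 and 23.1. Proliferation markers summed to 3041, 2769 and 2026 TPM, and mitochondrially encoded genes took 2.37%, 2.51% and 2.68% of gene counts. The part of these differences in the results below was not tested. In bulk RNA, fewer cells of a type and less RNA per cell cannot be told apart.

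Of the 86 genes, 83 stood at 1 TPM or more in every library, and 79 reached 100 TPM. Their summed level was 112135, 111273 and 119560 TPM, which is 11.2%, 11.1% and 12.0% of all TPM. As a share of gene counts, which does not correct for their short transcripts, they took 5.05%, 5.05% and 5.40%, with 95% Wilson intervals of 5.04% to 5.06%, 5.04% to 5.07% and 5.39% to 5.41%. Library 3 lay above the other libraries on both scales. Of the 100 most abundant protein-coding genes, 39, 38 and 40 were ribosomal protein genes in libraries 1, 2 and 3. The median level of the detected 60S genes was 1018, 936 and 971 TPM, and that of the 33 detected 40S genes 1243, 1218 and 1353 TPM.

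The highest level belonged to Rps19, a 40S protein needed to mature the small subunit and mutated in Diamond-Blackfan anaemia, at 5947, 5887 and 6437 TPM in libraries 1, 2 and 3. Rpl13a also stood high, at 4985 ± 330 TPM (SD, n = 3). Rpl13a, beside its place in the 60S subunit, is known for silencing selected messenger RNAs in interferon-treated myeloid cells. Rpl41, which encodes one of the smallest proteins known, stood at 4504 ± 99.9 TPM. Among the 10 highest were further Rpl32 (3916 ± 167 TPM), Rps14 (3830 ± 323), Rps27 (3319 ± 461), Rps18 (2952 ± 157) and Rps9 (2470 ± 163). Neighbours in this order such as Rpl32 and Rps14 lay within the spread of the libraries. The Rpl41 coding sequence of 75 bases is shown because of its size. It lies in coding exons of the gene at chr10:128548114-128549305 on the minus strand of mm10.

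Rpl41: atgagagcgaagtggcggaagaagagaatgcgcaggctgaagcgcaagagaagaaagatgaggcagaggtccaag

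**Figure D1:**
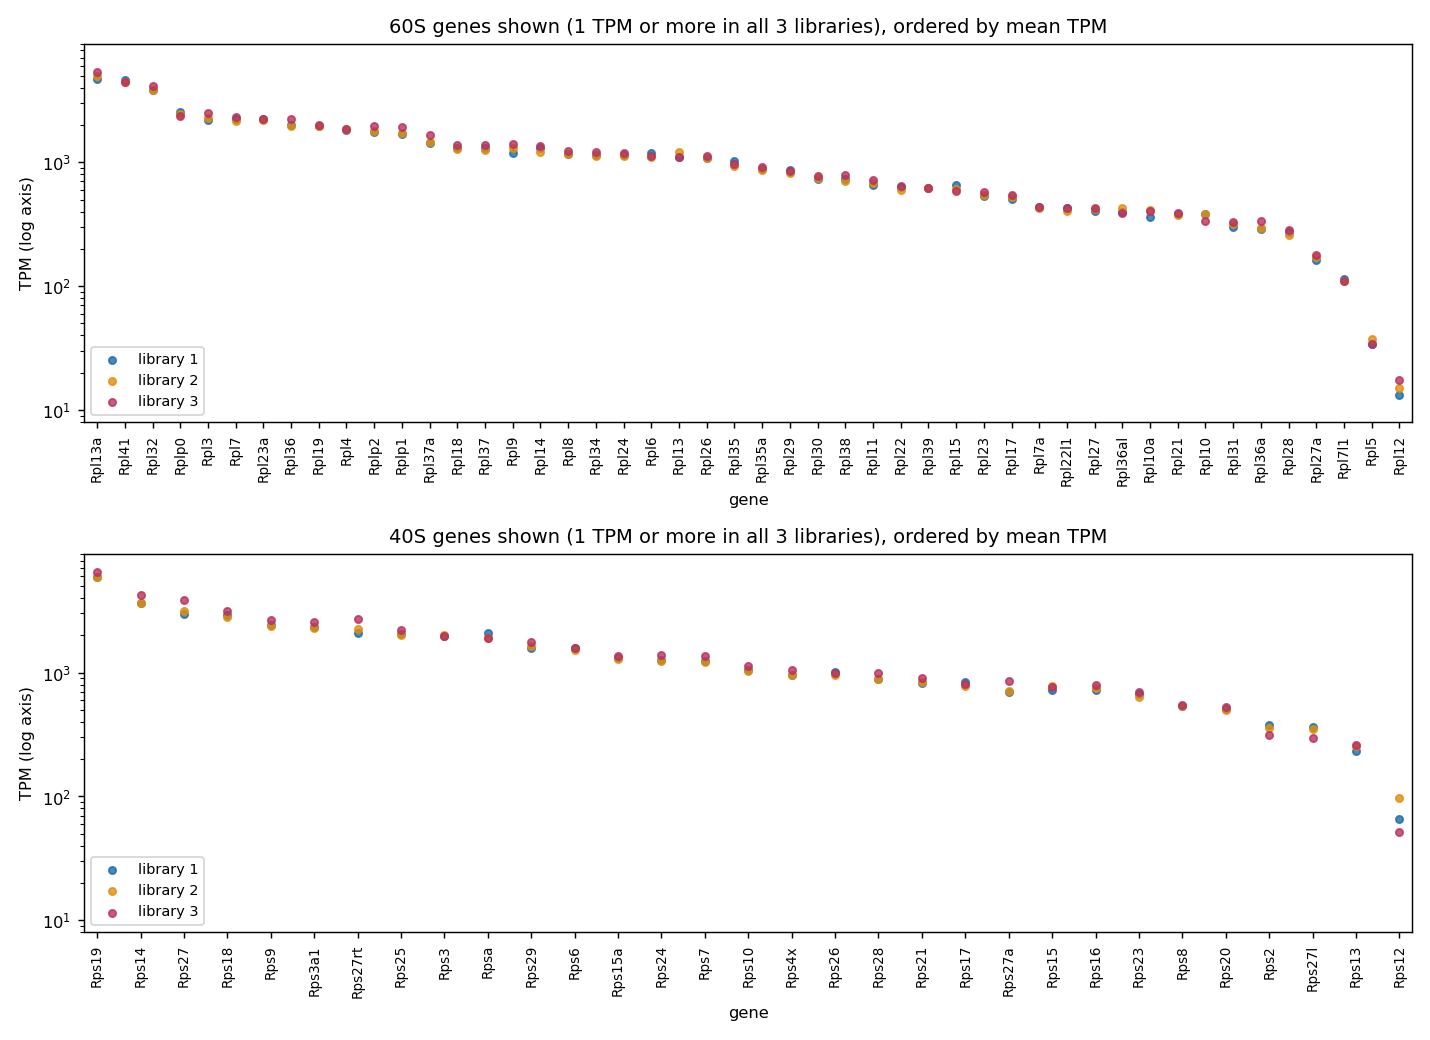
Level of 79 detected ribosomal protein genes in TPM (vertical log axis), with 60S genes above and 40S genes below and 1 point per library. Most genes lie above 100 TPM with their 3 points close together, while Rpl12, Rpl5 and Rps12 stand far below the rest and the points of Rps12 are spread from 51.4 to 97.7 TPM.

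Lowest among the detected genes was Rpl12, a protein at the base of the stalk, at 13.3, 15.0 and 17.6 TPM in libraries 1, 2 and 3. Rps19bp1 followed at 17.1, 17.3 and 17.9 TPM. Rpl5, which carries 5S ribosomal RNA into the 60S subunit and with Rpl11 binds the p53 regulator Mdm2, stood at 34.0, 37.4 and 34.4 TPM. Rps12 stood at 65.3, 97.7 and 51.4 TPM. Rpl7l1, a paralog of Rpl7, was at 112 ± 2.46 TPM, Rpl27a at 161, 172 and 178, Rps13 at 232, 255 and 262, and Rpl28 at 272, 258 and 283. The stalk proteins that recruit elongation factors stood high, with Rplp0 at 2521, 2460 and 2352 TPM, Rplp1 at 1688, 1730 and 1941, and Rplp2 at 1754, 1781 and 1966. The ratio between the highest and the lowest detected subunit gene was 398, although their proteins are needed in near-equal numbers.

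These levels changed when genes that share sequence with them were counted. A copy here is a gene outside the 86, not overlapping the gene, that holds at least 5% of its distinct 50-base windows without mismatch on either strand, a definition chosen after the data were seen. The definition also takes in long genes that hold only part of such a sequence, with all their counts, as Uimc1 at 51.5, 54.0 and 51.7 TPM for Rpl29, of whose windows it holds 26.5%. A copy that fitted several genes was given only to the gene of whose windows it held the largest share. Of the 573 copies so given to 77 genes, 545 are annotated as pseudogenes and 22 as protein coding. Their summed level was 36632, 35553 and 39724 TPM. In 17 genes the gene itself held less than 50% of the counts of gene and copies together, and 42 genes held 90% or more. Rps27 is among the 42, at 100%. Rps27rt, with the identical coding sequence, is itself among the 86 and so not a copy. The 3 copies that fitted Rps27 were not given to it under the rule of the largest share.

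The 3 lowest subunit genes held the smallest shares of their families. For Rpl12 (chr2:32961559-32965345, plus strand, mm10), the processed pseudogene Gm10275 on chromosome 10 stood at 798, 776 and 906 TPM, and Rpl12 held 3.94% of the counts of gene and copies. For Rpl5 (chr5:107900502-107909005, plus strand), Gm15500 on chromosome 7 stood at 910, 858 and 902 TPM and Rpl5 held 3.51%. For Rps12 (chr10:23785183-23787275, minus strand), 21 copies summed to 907, 833 and 933 TPM, against 65.3, 97.7 and 51.4 for the gene itself. With its copies, Rps12 came to 972, 931 and 985 TPM, so that the libraries lay close together. The most abundant copy of any member was Rps23-ps1, at 2921, 2776 and 3245 TPM beside 669, 632 and 691 for Rps23, a protein of the decoding centre. Gm12918, a copy of Rpl13, stood at 1679, 1710 and 2020 TPM, and Rps6-ps4 at 1584, 1608 and 1825 TPM beside 1582, 1534 and 1565 for Rps6, the substrate of the S6 kinases.

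Adding the copies narrowed the range among the 82 detected subunit genes. The lowest level was 112 TPM with copies and 15.3 TPM without, and the ratio of highest to lowest 55.1 against 398. Copies can only add to a level, so the lowest level could not fall. The SD of the log2 level over genes was 0.99 with copies and 1.51 without, and 80 of 82 genes lay within 4-fold of the median, against 71 without copies. For comparison, the SD of the log2 level was 1.24 in 77 detected mitochondrial ribosomal protein genes and 1.22 in 38 proteasome genes, whose copies were not added. The proteasome genes were taken by name, which took in Psmc3ip (mean 13.4 TPM), named for its binding to Psmc3 and not a subunit. The gene now lowest, Rpl7l1, had no copy by this definition.

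**Figure D2:**
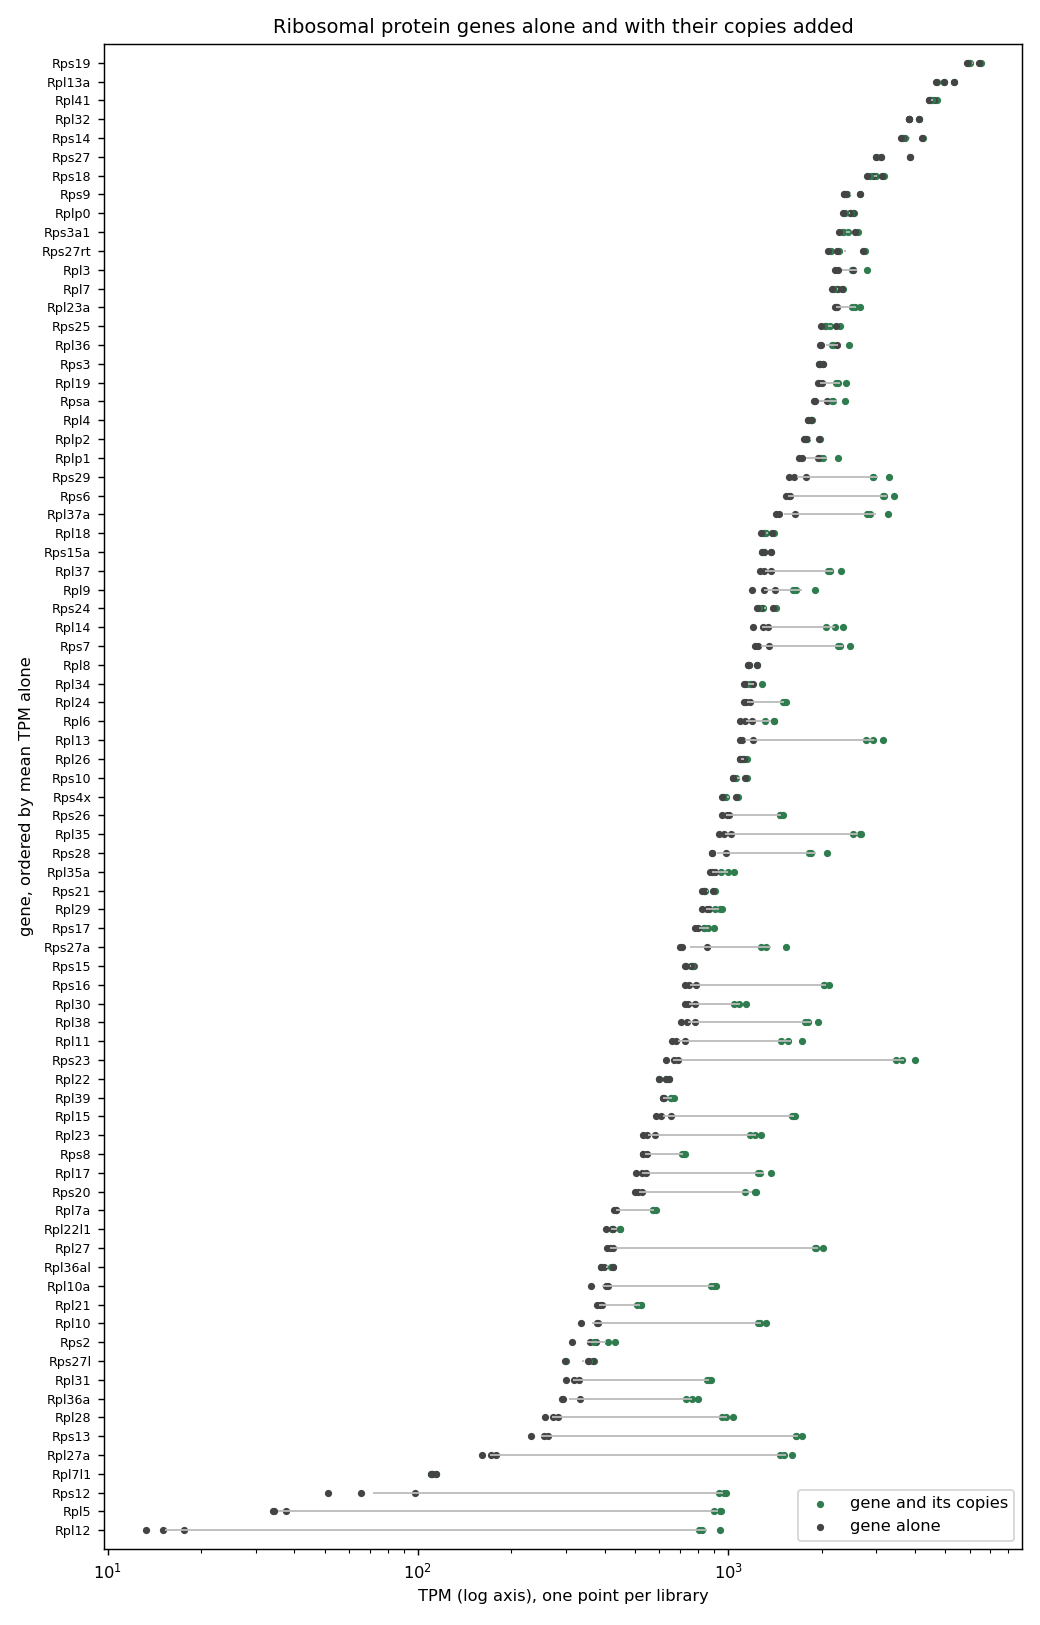
Level in TPM (horizontal log axis) of 79 of the 82 detected subunit genes, 1 row per gene and 1 point per library, for the gene alone (dark) and with its copies added (green). The genes at the bottom, Rpl12, Rpl5 and Rps12, move from means of 15.3, 35.3 and 71.5 TPM to 855, 929 and 963 TPM, while Rps3 and Rpl22 have no copies and stay where they were.

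For 18 genes at least 1 copy held the whole coding sequence without a mismatch, and 12 of the 17 genes with less than 50% of the counts were among these 18. The median share held by the gene itself was 43.1% in these 18 and 97.6% in the other 68. Of the 17 genes, 5 had no such copy, and Rpl41, which had 1, held 98.5%. Copies were themselves defined by shared sequence, and a cause of the split was not tested. Rps12 is shown, by its first 300 bases, because its whole coding sequence of 396 bases was found unchanged in Rps12-ps3 on chromosome 19 (annotated as protein coding, 506, 476 and 492 TPM), in Rps12l1 on chromosome 7 (393, 348 and 426 TPM) and in Gm44510, which overlaps Rps12l1. A read that lies wholly inside it matches all of them.

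Rps12: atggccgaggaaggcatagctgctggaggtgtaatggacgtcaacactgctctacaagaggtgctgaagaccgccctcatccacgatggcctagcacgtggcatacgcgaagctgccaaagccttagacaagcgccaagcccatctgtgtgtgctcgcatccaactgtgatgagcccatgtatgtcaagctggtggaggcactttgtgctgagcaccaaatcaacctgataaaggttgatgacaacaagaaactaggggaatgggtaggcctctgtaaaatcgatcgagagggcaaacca

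The deposited posterior SD, a measure of how far the model could move reads between entries, followed the same genes. Relative to the count its median was 1.03% in the 83 genes and 0.0242% in all genes counted at least 10 times on average. It was largest for Rps12 (16.7%), Rpl10 (10.5%), Rpl12 (8.13%), Rps13 (6.80%) and Rpl5 (6.52%), and its median was 17.8% over the copies. Among the 17 genes with less than 50% of the counts the median was 3.88%, against 0.167% among the 40 detected genes that held 90% or more. This is a description over genes, which are no replicates.

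Differences between libraries were small but exceeded counting noise in many genes. By a Poisson chi-square test over the 3 libraries with TMM-adjusted library sizes (edgeR) and Benjamini-Hochberg adjustment over 13970 genes, 48 of the 83 tested ribosomal protein genes differed, where 45.7% of all tested genes did. Deeply counted genes are called more often: 71.6% of the 2585 genes averaging at least 1000 counts differed, and of the 78 ribosomal protein genes among these 47 did. The fold between the highest and the lowest library had a median of 1.06 in the ribosomal protein genes, 1.26 in all tested genes and 1.14 in those with 1000 counts or more. A called difference over 1.25-fold was found for 4 of the 83, against 29.6% of all tested genes. Among genes with 1000 counts or more it was found for 3 of the 78, against 17.6%. By subunit, 24 of 33 genes of the 40S and 24 of 49 of the 60S differed.

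Library 3 was the highest for 41 of the 83 genes, library 2 for 26 and library 1 for 16. Among all 13970 tested genes these counts were 5099, 4509 and 4362. Called genes highest in library 3 numbered 29, where 16.2% of all tested genes were called and highest there. The split depended on scaling: with library sizes from total counts, 63 genes were called, against 46.1% of all tested genes, and 49 of them were highest in library 3, against 22.5%. The median log2 difference of library 3 over library 1 was 0.05 in the 83 genes, 0.0041 in all tested genes and -0.06 in those with 1000 counts or more. With the posterior SD added to the counting error, 33 of 83 were called, against 40.5% of all tested genes.

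Against counting noise alone, the largest chi-square belonged to Rps27, a zinc finger protein of the 40S subunit. It stood at 2991, 3119 and 3846 TPM in libraries 1, 2 and 3. Library 3 stood above both others, by 1.26-fold over library 1 on TMM-adjusted counts (adjusted p = 1.54e-55). Rps27rt, an intronless gene that encodes the same protein, moved with it at 2093, 2251 and 2728 TPM (1.28-fold, adjusted p = 1.31e-44). Rps27l, their spliced paralog and a known target of p53, went the other way at 367, 353 and 298 TPM, 1.25-fold between highest and lowest (adjusted p = 3.33e-08). A read inside the coding sequence matches both Rps27 and Rps27rt, so these differences are not independent. With the posterior SD added to the counting error, the adjusted p was 3.37e-07 for Rps27, 5.48e-05 for Rps27rt and 4.05e-08 for Rps27l. It was then smaller for other genes, such as Rplp0 (6.18e-26) and Rps14 (5.83e-22), so the order of the genes depends on this error.

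The 3 genes are shown together because their coding sequences have the same length and 60 of 252 bases separate Rps27 from Rps27l, while Rps27rt is identical to Rps27. Capitals mark the bases at which Rps27 and Rps27l differ. Rps27 lies at chr3:90212522-90213651 (minus strand, mm10), Rps27l at chr9:66946086-66949516 (plus strand) and Rps27rt at chr9:114982366-114982739 (minus strand).

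Rps27: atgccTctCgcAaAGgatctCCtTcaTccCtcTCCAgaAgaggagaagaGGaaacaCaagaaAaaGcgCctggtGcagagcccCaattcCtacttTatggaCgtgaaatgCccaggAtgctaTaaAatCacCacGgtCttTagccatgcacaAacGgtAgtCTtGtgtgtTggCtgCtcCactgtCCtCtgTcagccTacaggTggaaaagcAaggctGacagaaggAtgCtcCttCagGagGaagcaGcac

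Rps27l: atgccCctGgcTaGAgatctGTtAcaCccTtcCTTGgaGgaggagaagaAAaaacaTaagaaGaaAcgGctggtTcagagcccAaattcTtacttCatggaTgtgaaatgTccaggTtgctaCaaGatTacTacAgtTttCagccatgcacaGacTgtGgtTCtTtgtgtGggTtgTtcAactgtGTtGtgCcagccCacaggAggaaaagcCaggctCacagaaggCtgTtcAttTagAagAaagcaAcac

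Among the other genes with the largest chi-square, Rpl3, which lies near the peptidyl transferase centre, was highest in library 3 at 2211, 2262 and 2518 TPM (1.12-fold, adjusted p = 1.82e-35). Rps14 was also highest there at 3673, 3615 and 4201 TPM (1.11-fold, adjusted p = 3.69e-22), as was Rpl9 at 1197, 1308 and 1411 TPM (1.16-fold, adjusted p = 8.97e-21). The opposite order was seen in Rpsa, the 40S protein also described as a laminin receptor, at 2077, 1911 and 1886 TPM (1.13-fold, adjusted p = 5.72e-27). Rplp0 was likewise lowest in library 3 (1.10-fold, adjusted p = 3.26e-26), although its stalk partners Rplp1 and Rplp2 were highest there (1.13-fold and 1.11-fold, adjusted p = 5.99e-11 and 1.43e-06). Rps2, at 376, 359 and 314 TPM, was lowest in library 3 (1.23-fold, adjusted p = 1.88e-14). Rpl13 was highest in library 2 at 1095, 1204 and 1106 TPM (1.14-fold, adjusted p = 1.10e-19). With its copies added it was highest in library 3 instead, at 2782, 2929 and 3143 TPM (1.10-fold, adjusted p = 6.55e-19).

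The largest fold belonged to Rps12, at 1.87 between libraries 2 and 3 (adjusted p = 1.43e-18). With its copies added the fold was 1.01 and the adjusted p 0.897. With the posterior SD added to its error, the adjusted p was 0.0443. Rpl10, at 379, 380 and 334 TPM, went from 1.22-fold (adjusted p = 4.40e-11) to 1.04-fold with its copies (adjusted p = 0.0655). With the posterior SD added and no copies, its adjusted p was 0.477. Over all 83 genes 48 were called with copies added, where 45.7% of all tested genes were, and 37 of these were highest in library 3, against 16.3% of all.

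Shorter genes leaned more toward library 3. The median log2 difference of library 3 over library 1 was 0.10 in 12 genes with transcripts under 450 bases, 0.07 in 30 genes of 450 to under 600 bases, 0.02 in 27 genes of 600 to under 900 and -0.01 in 14 longer genes. Across the 83 genes Spearman's rho between length and this difference was -0.32 and Pearson's r on log2 length -0.27, with all genes drawn from the same pair of libraries. In 2507 other genes averaging at least 1000 counts rho was 0.04. Their median was -0.03 in 41 genes under 450 bases and -0.07 in 2234 genes of 900 bases or more. Whether the order by length is particular to ribosomal protein genes was not tested.

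**Figure D3:**
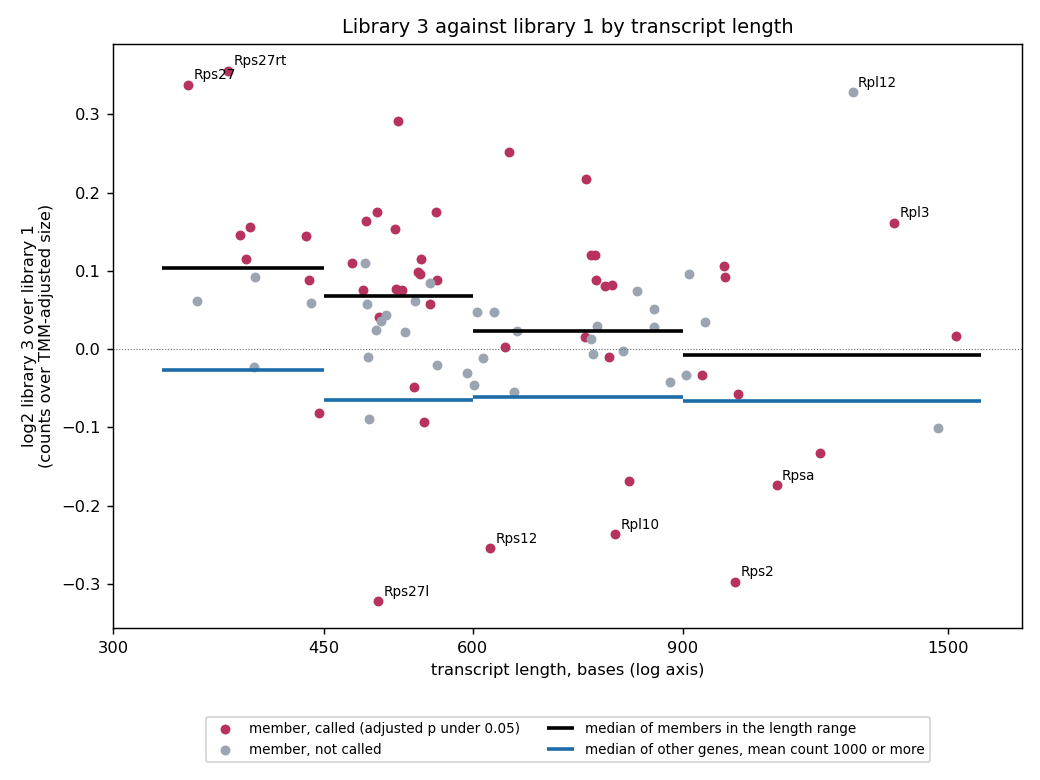
Log2 of library 3 over library 1 (vertical, counts over TMM-adjusted library size) against transcript length in bases (horizontal log axis), 1 point per ribosomal protein gene, with medians in 4 length ranges for these genes (black) and for other genes averaging at least 1000 counts (blue). Black medians go from 0.10 to -0.01 with length, Rps27 and Rps27rt lie at the upper left and Rps27l and Rps2 at the bottom.

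The second table of whole-number counts treated these genes differently. It held a median of 1.90% of the estimated counts for the 83 genes, against 40.7% for all genes averaging at least 10. Rps27rt had no whole-number count in any library, and Rpl23a, Rps29, Rpl24 and Rpl19 held under 0.1% of their estimated counts. The share was 14.3% in the 8 genes with under 10% of their windows shared with other genes and 0.811% in the 24 genes with 50% or more shared. Whole-number counts were nearly equal in libraries of unequal depth. Rps3, which shares 2.82% of its windows with other genes, had 1399, 1403 and 1384, and Rpl4 had 2087, 2103 and 2086. The median ratio of library 2 to library 1 was 1.03 in whole-number counts and 1.20 in estimated counts of the 83 genes, where the library totals stood at 1.13 and 1.19. Of 76 genes tested on these counts 9 were called, against 21.6% of all. All 9 were highest in library 3 (7.89% of all), the library with the smallest total, and near-equal counts divided by library size are highest there by construction, so nothing about levels is read from these calls.

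**Figure D4:**
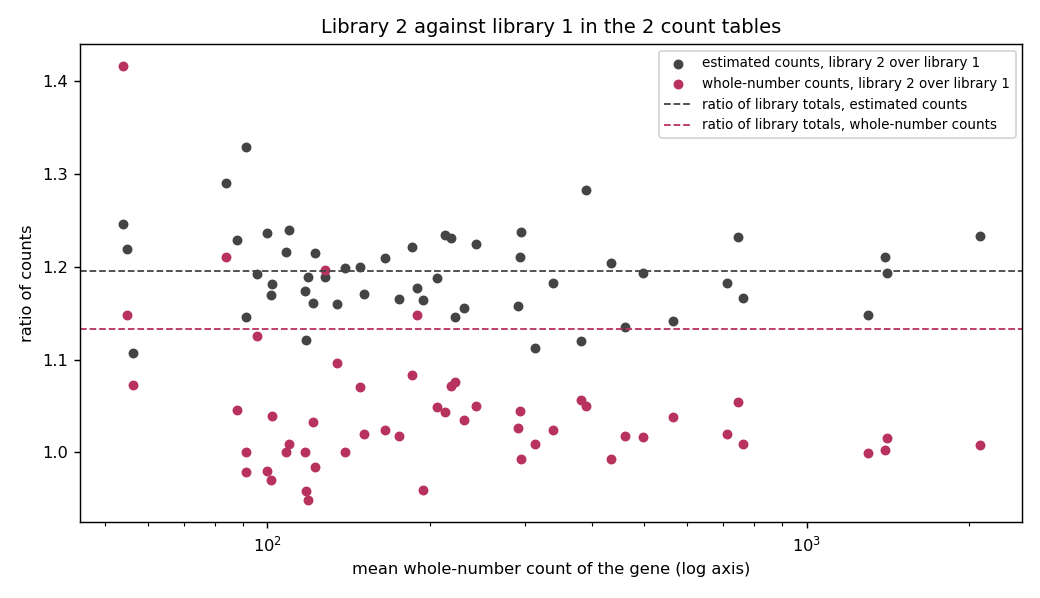
Ratio of the count in library 2 to that in library 1 (vertical) against the mean whole-number count (horizontal log axis) for the 52 ribosomal protein genes with a mean whole-number count of 50 or more, in estimated (dark) and whole-number counts (red), with the ratio of library totals as dashed lines. Of the 52 red points, 47 lie below the red line, while the dark points scatter around theirs.

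Paralogs with restricted expression were nearly absent. Rpl10l, known from the testis, had 0 counts in all libraries, which allows up to 3 counts or 0.254, 0.212 and 0.281 CPM. Rpl3l, known from striated muscle, had 1, 0 and 0 counts, and Rpl39l, known from male germ cells, 1, 0 and 1. Their canonical genes stood at 365 ± 24.3 (Rpl10), 2330 ± 164 (Rpl3) and 617 ± 3.37 TPM (Rpl39; SD, n = 3).

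In the other 5 pairs both genes had estimated counts in every library. With 3 libraries the exact two-sided sign-flip permutation test cannot go below p = 0.25, which all 8 pairs measured reached. Rpl7l1 lay below Rpl7 by a log2(TPM + 0.1) difference of -4.33 ± 0.06 (SD, n = 3). Rps27l lay below Rps27 at -3.29 ± 0.35 and Rps27rt at -0.49 ± 0.02. Rpl36al was above Rpl36a in all 3 libraries, at 396, 424 and 390 TPM against 292, 294 and 332, a difference of 0.40 ± 0.15. With copies added the order turned, since Rpl36a then came to 765, 732 and 802 TPM and Rpl36al to 419, 424 and 390. Their coding sequences are 87.7% identical. In whole-number counts, Rps27l lay above Rps27 by 3.49 and Rpl7l1 above Rpl7 by 0.17 on the log2 scale, so the order of both pairs depends on the table. There Rps27rt minus Rps27 was -6.42, with 0 counts of Rps27rt in every library against 28, 20 and 30 of Rps27. Rps27rt shares 91.1% of its windows with other genes. Its estimated level therefore rests on how reads were shared, which the SD over libraries does not measure.

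Rpl22 and Rpl22l1 differed by transcript class. Rpl22, which alpha-beta T cells need to develop, stood at 631, 598 and 644 TPM and Rpl22l1 at 423, 405 and 426 TPM, a difference of -0.58 ± 0.02. Protein-coding transcripts held 98.5% of Rpl22, and on such transcripts alone the difference was -2.81 ± 0.17. The non-coding transcript Rpl22l1-209 held 75.9%, 70.0% and 64.0% of the gene's TPM in libraries 1, 2 and 3, and its only detected coding transcript, Rpl22l1-206, held 18.6%, 20.4% and 23.9%. Rpl22l1 shares 51.4% of its windows with other genes and Rpl22 5.16%, and their own shares of counts were 96.3% and 100%. Neither gene passed the test between libraries (adjusted p = 0.784 for Rpl22l1 and 0.259 for Rpl22).

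**Figure D5:**
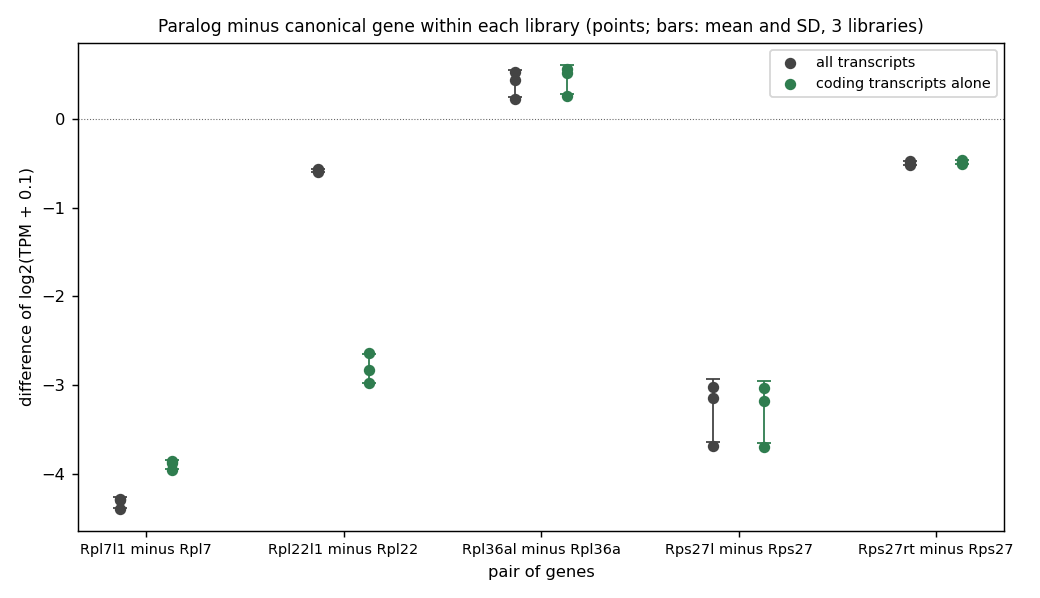
Difference of log2(TPM + 0.1) between paralog and canonical gene (vertical) for the 5 pairs with estimated counts of both genes in every library. There is 1 point per library, with bars for the mean and SD of 3 libraries, for all transcripts (dark) and coding transcripts alone (green). The pair of Rpl22l1 and Rpl22 moves from -0.58 to -2.81 when only coding transcripts count, and the pair of Rpl36al and Rpl36a, drawn without copies, is the only one above 0.

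Over all detected genes, transcripts annotated as protein coding held 80.6%, 81.1% and 80.4% of the TPM in libraries 1, 2 and 3. Transcripts of the nonsense-mediated decay class held 8.18%, 8.19% and 8.16%, retained introns 5.47%, 5.30% and 5.34%, and processed transcripts 5.72%, 5.40% and 6.11%. The shares hardly moved between libraries. Coding transcripts held over 90% of 56 genes and under 50% of 17. The lowest were Rpl37 (1.28%), Rps16 (1.38%), Rpsa (1.39%), Rpl35 (1.48%) and Rps26 (5.31%). In Rpsa the decay-class transcript Rpsa-206 held 90.3%, 90.1% and 89.1%, in Rpl35 the processed transcript Rpl35-203 held 98.2%, 98.5% and 98.2%, and in Rps16 and Rps26 retained-intron transcripts held 98.6% and 94.7% on average. Of the 17 genes with less than 50% of the counts of gene and copies, 7 were under 50% coding, and of the 40 detected genes with 90% or more, 3 were. These classes say to which annotated transcript the model gave the reads, and transcripts of a gene share most of their sequence.

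The annotated start sites held TOP motifs more often than others. In the RefSeq promoter table (GRCm38.p6), 66 of the 86 genes matched, with 78 start sites. A C at the first base followed by 4 pyrimidines stood at 14 of these starts (17.9%), against 2.51% of all 32851 starts, and within 5 bases of the start at 41.0% against 18.3%. The start windows below are shown because they carry this shared feature or, for Rps27l and Rpl22l1, do not at the annotated base. Each runs from 15 bases before the start to 15 after it on the gene's strand, and capitals mark the C at the start and the pyrimidines that follow.

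Rps6, chr4:86857353-86857382 (-): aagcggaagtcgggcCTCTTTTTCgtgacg

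Rpl35, chr2:39005117-39005146 (-): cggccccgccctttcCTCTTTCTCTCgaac

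Rplp2, chr7:141447636-141447665 (+): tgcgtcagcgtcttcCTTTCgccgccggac

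Rps18, chr17:33955651-33955680 (-): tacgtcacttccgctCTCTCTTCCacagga

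Rps27, chr3:90213634-90213663 (-): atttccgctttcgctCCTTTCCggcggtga

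Rps27rt, chr9:114982725-114982754 (-): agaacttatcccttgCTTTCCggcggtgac

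Rps27l, chr9:66946071-66946100 (+): ccactcctccccgccgcctctatcccggaa

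Rpl22l1, chr3:28805493-28805522 (+): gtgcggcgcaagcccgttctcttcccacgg

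The intronless Rps27rt thus starts in a run of pyrimidines like that of Rps27, whereas Rps27l and Rpl22l1 do not have it at the annotated base but do have it within 5 bases of the start printed. In the 300 bases from 250 before to 50 after the start, CCGGAAG, a site of ETS family factors, was found on either strand at 34.6% of the 78 starts against 8.86% of all. AAGATGG, a YY1 site, was at 15.4% against 6.34%. TATAAA on the gene's strand was at 7.69% against 8.32%, and the E-box CACGTG on either strand at 10.3% against 7.15%. A match is a description and not a bound site.

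Genes that work with the ribosome gave other values. Of the ribosomal protein genes whose names fall outside the rule, Fau, which encodes a 40S protein, stood at 1273, 1430 and 1506 TPM and Rack1, a scaffold on the 40S subunit, at 1002, 925 and 968. Both differed between libraries (adjusted p = 3.70e-12 and 0.00264), with Fau highest in library 3 and Rack1 in library 1. Of 24 other TOP messenger RNAs 18 were called, with 6 highest in library 3 and 10 lowest there. Of all tested genes 45.7% were called, and of those averaging at least 1000 counts, as most of this list do, 71.6%. Among these 2585 deeply counted genes, 388 were called and highest in library 3 and 1144 called and lowest there. The elongation factor Eef1a1 stood at 6088, 6092 and 6339 TPM, above Rps19 in libraries 1 and 2 and below it in library 3, and Tpt1 at 1256, 1275 and 1373. Npm1, a nucleolar chaperone, was highest in library 1 at 1122, 1017 and 1021 TPM. The largest chi-square of this list belonged to the elongation factor Eef2, at 892, 773 and 759 TPM (1.20-fold, adjusted p = 5.75e-77), followed by Eif4a2, at 349, 348 and 435 TPM.

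Of all genes tested, 45.7% were called, 16.2% called and highest in library 3 and 19.5% called and lowest there. Of 40 ribosome biogenesis genes 21 were called (52.5%), 3 highest and 16 lowest in library 3. Nucleolin (Ncl) stood at 291 ± 7.22 TPM (SD, n = 3), Nop56 at 205 ± 14.7 and Nop58 at 155 ± 14.9. Ebna1bp2 at 143, 143 and 108 TPM and Nop2 at 33.9, 26.0 and 23.6 had the largest chi-square, both lowest in library 3. Of 77 mitochondrial ribosomal protein genes 24 were called (31.2%), 1 highest and 19 lowest in library 3, with Mrpl33 at 370, 379 and 348 TPM, Mrps21 at 301, 313 and 276 and Mrpl18 at 246, 249 and 228, and Mrpl12, at 73.4, 62.7 and 53.7, had the second-largest chi-square after Mrpl18. In a list of 14 genes drawn up as regulators of TOP messenger RNAs 5 were called (35.7%), 1 highest and 3 lowest in library 3. The list is wider than its name, since it holds transcription factors such as Max and La-related proteins such as Larp7. Eif4e, the cap-binding protein, stood at 313 ± 7.90 TPM, Max at 94.3 ± 10.2 and Larp7 at 80.7 ± 5.14, and Rptor, the mTORC1 adaptor, at 4.97, 8.21 and 7.00 TPM, lowest in library 1. The median log2 difference of library 3 over library 1 was 0.05 in the ribosomal protein genes, -0.13 in the biogenesis genes, -0.12 in 38 proteasome genes, -0.05 in the mitochondrial ribosomal genes and -0.03 in the other TOP messenger RNAs. In all genes averaging at least 1000 counts it was -0.06. The difference between these lists was not tested. Summed proliferation markers were lowest in library 3, and their part in these values was not tested.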

How the data were processed

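The authors deposited 3 tables per library. The first and second hold estimated counts, made by the authors by sharing reads among entries in the RSEM column layout, and the deposited TPM, per gene and per transcript on mm10, per the file headers and labels. They also hold, as deposited, a posterior SD for every count (a signal in units of reads) and the percent of the gene's TPM on each transcript. The third holds whole-number counts per gene as deposited, summing to 2988262, 3386154 and 2734873. Annotation releases (M21 and M4) were told from identifiers. Not given in the sources used here: aligner, strand and duplicate handling.

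Estimated counts were rounded. With 1 group, edgeR's quasi-likelihood test has no contrast, so libraries were compared per gene by a chi-square test against Poisson noise with TMM-adjusted sizes (edgeR 4.0.16, R 4.3.3; factors 0.994, 0.976 and 1.03) for genes averaging at least 10 counts, called at 0.05 after Benjamini-Hochberg adjustment. The test was tested on simulated Poisson counts, which hold no error from sharing reads among entries and so cannot speak to that error. Alternatives used DESeq2 1.42.0 size factors, total counts, other filters, the whole-number counts, the posterior SD and each library left out. Intervals and floors cover counting error only, since PCR copies are not independent molecules. The members, lists and tests were chosen with earlier results of these data known. Genes named are those under 1 TPM, the paralog pairs, the extremes of level, chi-square, fold, coding share, posterior SD and whole-number share, and the leading genes of the related lists. Copies and genes without such a rank were named after their values were seen. The pair Rps4x and Rps4l was not analysed here. Some genes enter the counts and medians but are not reported here by name.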

Additional observations from a re-analysis of the deposited data

How the results depend on the processing

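Of the 83 ribosomal protein genes 48 were called, against 45.7% of all tested genes. The count was 47 with DESeq2 size factors (45.7% of all), 63 with total counts (46.1%) and 49 with a mean count of 50 or more (51.7%). It was 45 of 85 without a filter (21.1% of all) and 33 with the posterior SD added (40.5%). It was 9 of 76 in whole-number counts, where fewer reads were counted and 21.6% of all tested genes were called. Without library 1, 2 or 3 it was 34, 40 and 26 of 83, against 34.0%, 30.7% and 21.3% of all. Genes highest in library 3 numbered 64 with total counts instead of 41, and 6335 instead of 5099 among all 13970 tested genes. The median log2 difference of library 2 over library 1, 0.03, was -0.15 in whole-number counts, whose near-equal values are divided by unequal totals, and -0.015 in TPM as deposited, where the cause was not tested. That of library 3 over library 1 was 0.05 and kept its sign in all alternatives run, but came to 0.10 with total counts and 0.10 in whole-number counts. The log2 difference of the 60S and 40S medians, -0.38, was -0.18 in CPM, which ignores length. The SD of log2 levels, 1.51, was 1.47 in CPM, 2.78 without a limit on the level, 0.99 with copies added and 1.02 with copies sharing at least 20% of windows. In whole-number counts, Rpl7l1 minus Rpl7 was 0.17 and Rps27l minus Rps27 was 3.49. TOP starts numbered 32 within 5 bases instead of 14 at the start. The number of pairs with a lower paralog was 7 of 8 without any one library. No paired analysis was possible because the study has 1 group. Of the 83 genes, 78 averaged at least 1000 counts, and 17 held less than 50% of the counts of gene and copies. How far depth or shared reads limit the results was not tested. The 1 biological replicate gives no spread between animals.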

Other observations

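Some genes were singled out after their values were seen. Rps24, a 40S protein whose messenger RNA is known for small alternative exons near its 3' end, was spread over 3 coding transcripts. Rps24-201 held 72.1%, 74.4% and 65.0% of its TPM in libraries 1, 2 and 3, Rps24-202 held 22.3%, 20.2% and 24.4%, and Rps24-210 held 5.37%, 5.11% and 5.36%. Most of the small TPM given to Rpl5 went to the retained-intron transcript Rpl5-205, at 25.9, 30.8 and 23.5 TPM, while the full coding transcript Rpl5-201 had 3.19, 2.45 and 4.01 TPM. The pseudogene Gm15500, which holds the whole Rpl5 coding sequence, stood at 910, 858 and 902 TPM.

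Rps27a, which is made as a fusion with ubiquitin, stood at 702, 710 and 852 TPM and was highest in library 3 (1.19-fold, adjusted p = 2.53e-14 by the chi-square test with edgeR's TMM sizes). With its copies added the fold was 1.15 (adjusted p = 1.12e-17). The 86 genes were spread over 19 chromosomes, with 14 on chromosome 7, and 4 are X-linked: Rps4x, Rpl39, Rpl10 and Rpl36a. Rps4x stood at 964, 959 and 1058 TPM.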
